A study of Callithrix jacchus with 11 samples.

Results

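The 100 transcripts described here took one of a pair of separate levels in each of 11 marmoset hippocampi, and they were 100 of the 54641 transcripts with a usable spot on every array. The level of a transcript was its log2 array intensity minus the 75th percentile of the same array, so that 0 stood for the 75th percentile and a difference of 1 for a 2-fold difference. The 11 levels of each transcript were sorted, and the largest gap between neighbouring levels with at least 2 animals on each side was divided by the larger of 0.2 and the pooled SD within the sides. A gap of at least 1, with spots well above background in every animal of the upper side, was found for 619 transcripts, and the 100 with the highest ratio were the members. The levels of all 11 animals thus chose the members without the group labels, and sides, gaps and ratios are given below as descriptions with no test.

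The animals were male common marmosets (Callithrix jacchus) that either were reared by hand by human caregivers or stayed with their parents for the first 3 months of life, and all of them lived with peers of their own age afterwards. The young animals, aged 13 to 19 months, were 2 parent-reared (PRY) and 3 hand-reared (HRY) marmosets, and the aged animals, aged 88 to 164 months, were 3 parent-reared (PRA) and 3 hand-reared (HRA) marmosets. Each animal gave 1 array of total RNA from whole hippocampus tissue, and an animal is named here by its group and replicate number, as in HRY1. Hand-reared infants came from litters too large for the mother and were picked by size and strength under a rule that changed over the years, as the study's methods say, and its sample overview gives the mothers of HRY1, HRY2 and HRA3 as hand-reared themselves.

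The hippocampus is the part of the brain that forms new memories and helps to shut off the hormonal response to stress, and it holds principal neurons, interneurons, glia and the cells of its vessels and coverings. In an outbred species most transcripts vary by degrees from one individual to the next, whereas some are high in certain animals and low or undetected in the others. A level from whole tissue averages over all its cells, so that fewer cells of a type and less RNA per cell cannot be told apart.

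The files name transcripts by Ensembl identifiers only, 0 of which matched the gene tables used here, so members are named by identifier, their functions are not given, and the tissue could not be checked against marker genes. The arrays lay on 2 slides. PRY1, HRY1 and HRY2 shared slide 1, where the 75th percentile of intensity was 2607 to 2766, and the other 8 animals shared slide 2, where it was 1460 to 1737. On slide 2 the array row 1 held HRY3 and the 3 HRA animals, all hand-reared, and row 2 held PRY2 and the 3 PRA animals, all parent-reared. The study lists RNA integrity numbers by animal and ties each animal to an array file in its sample overview, and the lowest of them were those of PRY2, HRA2 and HRA1.

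Across the members the gap ranged from 1.00 to 4.49 with a median of 1.70, while the largest gap of a transcript had a median of 0.226 over all 54641 transcripts. A gap of at least 2 was seen in 39 members and a gap of at least 3 in 14. Undetected spots entered these gaps at their measured signal, so gaps that reach below detection are not measured folds. The pooled SD within the sides was 0.122 to 0.857 with a median of 0.362 in the members. Over all transcripts, each split at its own largest gap, the median of this SD was 0.181. By these medians the sides of the members were not tighter than those of an ordinary transcript. The rule set this in part, as it asked for a gap of at least 1 and did not reward a spread below 0.2. The ratio of gap to spread ran from 3.49 to 22.4 with a median of 4.50. At the threshold, ENSCJAT00000020840.1 was the last member with a gap of 1.33 and a ratio of 3.49, and ENSCJAT00000002307.2 was the first transcript left out with a gap of 2.81 and a ratio of 3.47.

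The members fell into 3 kinds by what their lower side held. In 39 members no animal of the lower side was above background, so that the transcript was detected in some animals and not well above background in the others. In 47 members every animal was well above background, and in the other 14 some animals of the lower side were. The fold between the sides was 2.38 to 58.5 with a median of 4.47 in the 47 members detected in every animal. For the 39 members with an undetected lower side it is a bound, computed against the mean of, in each animal, the higher of the dimmest signal well above background and the member's own value, and it was at least 1.33-fold to at least 16.2-fold with a median of 2.76. Over all transcripts 70.9% were well above background in every animal, against those 47 of the 100 members, a share that the choice of members partly sets.

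The member with the highest ratio, ENSCJAT00000003843.1, had a gap of 4.49. Its level was -8.84 and -4.35 in PRY1 and PRY2, -4.08, -9.26 and -9.22 in HRY1 to HRY3, -9.10, -4.16 and -9.17 in PRA1 to PRA3, and -8.98, -8.91 and -8.93 in HRA1 to HRA3. PRY2, HRY1 and PRA2, of 3 different groups, lay close together at the upper level and the other 8 animals lay at the background, at least 6.23-fold lower. In ENSCJAT00000022894.2, with a gap of 3.30, the levels were -8.62 and -8.71 in PRY1 and PRY2, -5.32, -8.98 and -8.98 in HRY1 to HRY3, -5.08, -9.10 and -4.76 in PRA1 to PRA3, and -8.69, -8.67 and -8.64 in HRA1 to HRA3. HRY1, PRA1 and PRA3 were detected and all others were not, a difference of at least 3.39-fold, so that HRY1 was the animal the 2 highest members shared. In ENSCJAT00000019372.2, with a gap of 4.29, they were -8.64 and -8.51 in PRY1 and PRY2, -8.84, -3.24 and -8.96 in HRY1 to HRY3, -8.91, -9.05 and -3.96 in PRA1 to PRA3, and -3.37, -3.60 and -8.25 in HRA1 to HRA3. HRY2, PRA3, HRA1 and HRA2 were at least 9.70-fold above the other 7 animals, and each of the 3 groups they came from also held an animal on the lower side.

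Another 3 of the 10 highest ratios belonged to dim transcripts detected in just 2 animals. ENSCJAT00000005644.2 was detected in HRY1 and HRY2 at -6.60 and -6.11, with the other 9 animals between -9.26 and -8.79. ENSCJAT00000004024.2 was detected in PRY1 and HRY2 at -5.93 and -6.21, with the others between -9.12 and -8.45. ENSCJAT00000030312.1 was detected in HRA2 and HRA3 at -6.33 and -5.99, with the others between -9.32 and -8.45. The raw median signal of this member reached 45 on the lower side and was as low as 45 on the upper side. Its sides were thus not separate before background correction and scaling. The bounds of the 3 were low, at least 1.37-fold, 1.69-fold and 1.63-fold, because the upper levels were themselves near the dimmest detectable signal.

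The remaining members among the 10 highest ratios were brighter. The level of ENSCJAT00000007769.2 was -1.45 and -1.47 in PRY1 and PRY2, -0.71, -0.72 and -5.99 in HRY1 to HRY3, -1.66, -1.63 and -6.22 in PRA1 to PRA3, and -6.91, -5.49 and -6.50 in HRA1 to HRA3. All 3 HRA animals, HRY3 and PRA3 were low, 4 of these 5 above background, whereas the other 6 animals were high, with a gap of 3.82. The level of ENSCJAT00000033548.1, detected in every animal, was -1.26 and -3.51 in PRY1 and PRY2, -1.14, -1.33 and -1.06 in HRY1 to HRY3, -1.29, -1.46 and -3.04 in PRA1 to PRA3, and -3.11, -1.49 and -0.92 in HRA1 to HRA3. PRY2, PRA3 and HRA1 were 3.93-fold below the other 8 animals. ENSCJAT00000039870.2 and ENSCJAT00000052737.1, the last of these 10, belong to common splits and are described with them below.

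**Figure D1:**
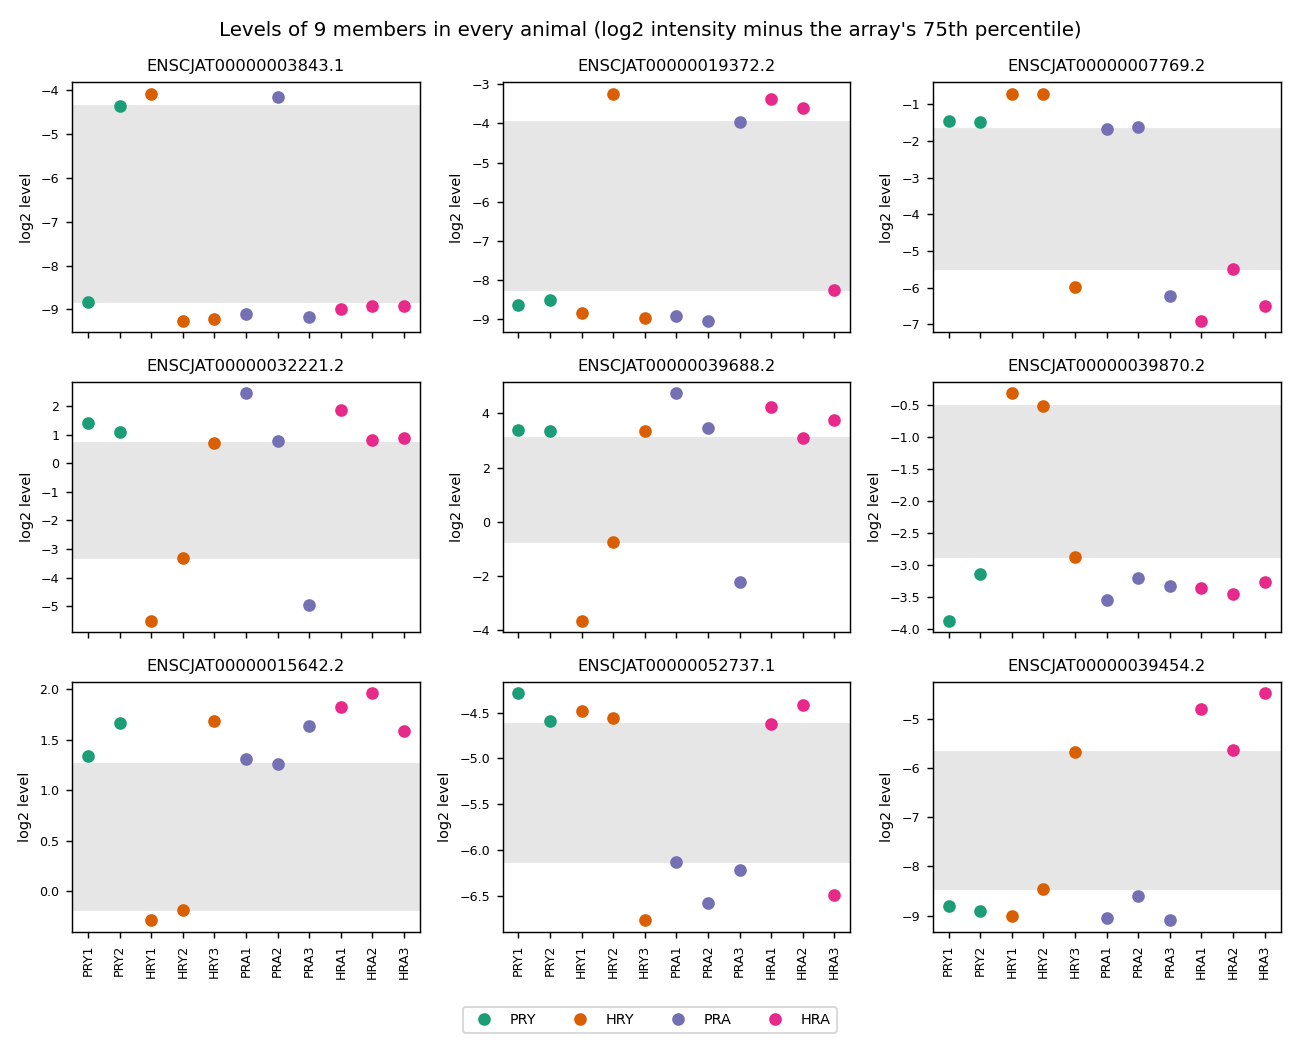
Levels of 9 members, as log2 intensity minus the array's 75th percentile, in each of the 11 animals, with 1 point per animal, colours for the 4 groups and the gap between the sides in grey. The gap is widest in ENSCJAT00000003843.1, at 4.49 with undetected spots at their measured signal. In no panel do the upper and lower points follow rearing or stage alone.

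The 100 members followed 48 different splits of the animals out of 1012 that leave at least 2 on each side, and 26 of those splits held a single member. The smaller side held 2 or 3 animals in 72 members and 4 or 5 animals in 28, and it was the lower side in 58 and the upper side in 42. No member split the animals exactly by rearing, by stage, by a hand-reared mother or into 1 group against the rest. Every member divided at least 1 of the 4 groups, with 23 members dividing 1 group, 60 dividing 2, 16 dividing 3 and 1 dividing all 4. The HRY group was divided in 75 members, against 36 for PRY, 46 for PRA and 38 for HRA, although a group of 2 such as PRY has fewer ways to be divided.

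Single animals took the upper side in 39 (PRA3) to 64 (HRA1) of the 100 members, so that none was low or high throughout. HRY1 and HRY2 were each on the smaller side in 44 members, more often than PRA3 at 35 or any other animal. HRA1 and HRA2 shared a side in 86 members, the most of the 55 pairs of animals, and HRY1 and HRY3, of the same group, shared a side in 37, the fewest. The median over the 10 pairs of the same group was 66.5 members and that over the 45 pairs of different groups was 57. HRY1 and HRY2, both on slide 1, shared a side in 72 members, while HRY3, on slide 2, shared it with HRY2 in 41 and with HRA3, also on slide 2, in 80.

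**Figure D2:**
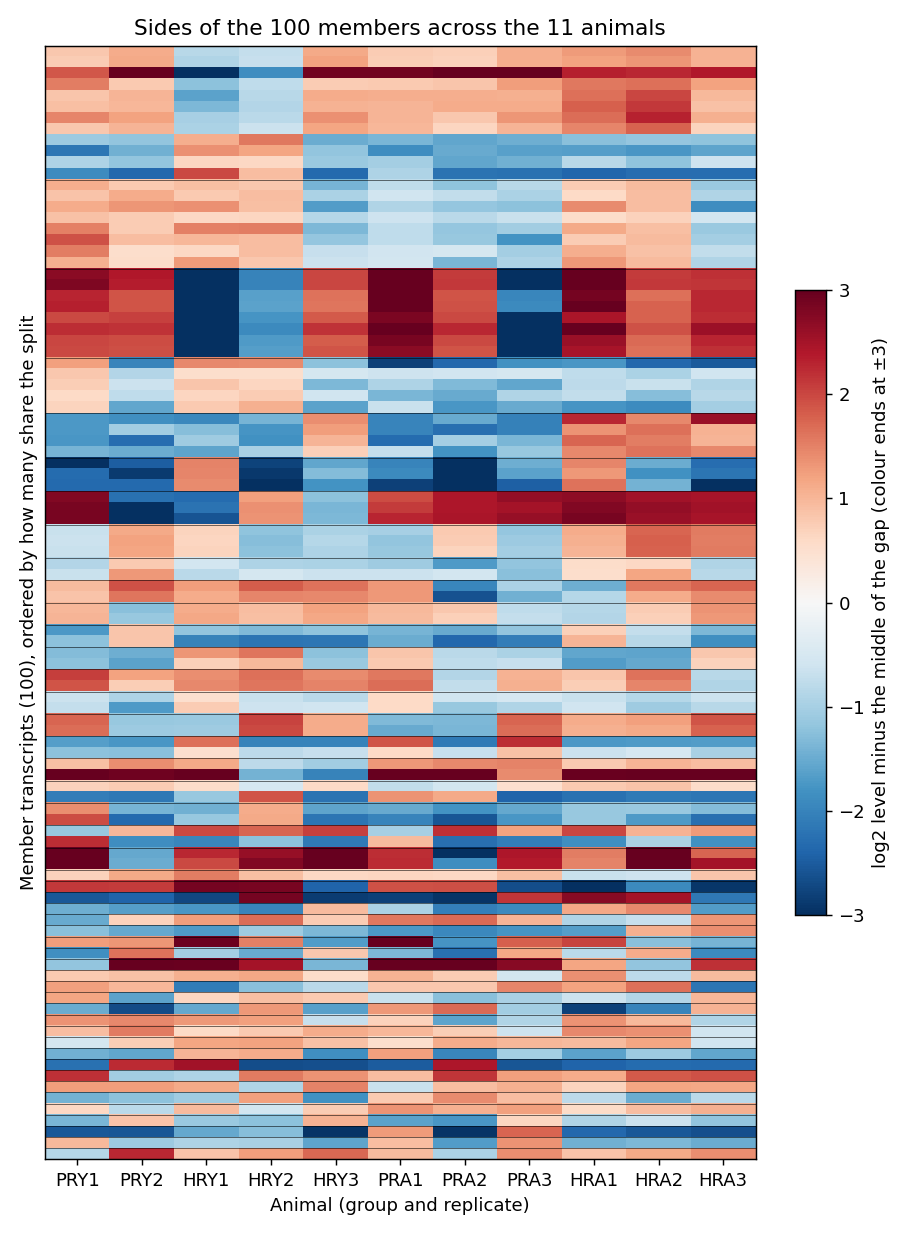
The 100 members (rows) in the 11 animals (columns), coloured by the log2 level minus the middle of that member's gap, red above and blue below, with thin lines between different splits. Members that share a split lie together, the largest set being the 12 at the top that set HRY1 and HRY2 apart, and the 48 splits cut across the 4 groups.

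The widest gaps among members detected in every animal belonged to 8 transcripts that were low in HRY1, HRY2 and PRA3 and high in the other 8 animals. Their gaps were 3.21 to 4.02 and the sides differed by 4.45 to 5.87 on the log2 scale. In ENSCJAT00000032221.2 the levels were 1.40 and 1.09 in PRY1 and PRY2, -5.50, -3.31 and 0.70 in HRY1 to HRY3, 2.44, 0.79 and -4.97 in PRA1 to PRA3, and 1.88, 0.80 and 0.88 in HRA1 to HRA3, a 57.4-fold difference. In ENSCJAT00000039688.2, with the largest fold of all members at 58.5, they were 3.39 and 3.36 in PRY1 and PRY2, -3.64, -0.74 and 3.36 in HRY1 to HRY3, 4.74, 3.46 and -2.22 in PRA1 to PRA3, and 4.22, 3.11 and 3.76 in HRA1 to HRA3. The 3 low animals came from 2 groups, and within each of those groups the remaining animals were as high as those of the other groups.

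Some of the 8 were among the brightest transcripts of the array even so. The level of ENSCJAT00000039703.2 was 6.79 and 6.75 in PRY1 and PRY2, 0.09, 3.07 and 6.60 in HRY1 to HRY3, 7.62, 6.75 and 1.33 in PRA1 to PRA3, and 7.36, 6.49 and 7.06 in HRA1 to HRA3, so that its lowest animal lay close to the array's 75th percentile and its highest far above it. In ENSCJAT00000022649.2 the levels were 5.98 and 5.58 in PRY1 and PRY2, 0.55, 2.07 and 5.32 in HRY1 to HRY3, 6.96, 5.57 and 1.74 in PRA1 to PRA3, and 6.56, 5.34 and 5.97 in HRA1 to HRA3, a 22.0-fold difference. The low side was not a single level: in all 8 members HRY1 was the lowest, PRA3 the next and HRY2 the highest of the 3. The 8 may not be independent of each other. The mean over the 8 members was -1.66 in HRY1, -0.51 in PRA3 and 0.75 in HRY2, against 4.37 (HRA2) to 5.79 (PRA1) in the animals of the high side. Between any 2 of the 8 the correlation over the 11 animals, whose arrays they share, was at least 0.982, and none of the 38669 transcripts outside the list and detected in every animal followed their mean with a correlation of at least 0.95 and a difference between the sides above 1.

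The most common split set HRY1 and HRY2 apart from the other 9 animals, in 12 members, which were lower there in 8 and higher in 4. The strongest of those that were higher and detected in every animal was ENSCJAT00000039870.2, with -3.87 and -3.14 in PRY1 and PRY2, -0.32, -0.53 and -2.88 in HRY1 to HRY3, -3.56, -3.21 and -3.33 in PRA1 to PRA3, and -3.37, -3.46 and -3.27 in HRA1 to HRA3. HRY1 and HRY2 were 7.57-fold above the rest, and HRY3, the remaining animal of their group, was the highest of the lower side. The level of ENSCJAT00000015642.2 was 1.34 and 1.66 in PRY1 and PRY2, -0.29, -0.18 and 1.68 in HRY1 to HRY3, 1.31, 1.26 and 1.63 in PRA1 to PRA3, and 1.82, 1.96 and 1.58 in HRA1 to HRA3, which was 3.52-fold lower in HRY1 and HRY2. ENSCJAT00000000811.2 had the widest gap of this split, 3.73, with -3.84 and -2.43 in PRY1 and PRY2, -8.79, -7.57 and -2.82 in HRY1 to HRY3, -2.81, -2.13 and -2.09 in PRA1 to PRA3, and -3.38, -3.45 and -3.31 in HRA1 to HRA3. It was not well above background in HRY1 and HRY2 and was at least 16.2-fold higher in the others, the largest bound among the members.

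Of the 8 members lower in HRY1 and HRY2, HRY1 was the lower of the pair in every case. These 8 had levels from dim to bright: the mean of the upper side was -2.92 in ENSCJAT00000000811.2 and 2.87 in ENSCJAT00000057142.1. Of the transcripts outside the list and detected in every animal, 4 followed the mean of these 8 with a correlation of at least 0.95 and a difference above 1. HRY1 and HRY2 shared the slide, the group and the mother's rearing. The definition of this split itself puts PRY1 of the same slide, HRY3 of the same group and HRA3 with the same kind of mother on the other side. Nothing is read from that, and the part of slide, rearing and mother's rearing in these levels was not tested.

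A further 8 members were low in PRA1, PRA2, PRA3, HRY3 and HRA3 and high in PRY1, PRY2, HRY1, HRY2, HRA1 and HRA2. The level of ENSCJAT00000052737.1 was -4.29 and -4.60 in PRY1 and PRY2, -4.48, -4.56 and -6.77 in HRY1 to HRY3, -6.14, -6.58 and -6.21 in PRA1 to PRA3, and -4.62, -4.42 and -6.49 in HRA1 to HRA3, a 3.84-fold difference with a gap of 1.51. That of ENSCJAT00000034131.2 was -5.87 and -5.67 in PRY1 and PRY2, -5.62, -6.08 and -8.67 in HRY1 to HRY3, -7.89, -8.14 and -8.21 in PRA1 to PRA3, and -5.58, -6.06 and -8.85 in HRA1 to HRA3, at least 2.15-fold higher on the upper side, where alone it was well above background. ENSCJAT00000060631.2, likewise undetected on its lower side, had -5.59 and -5.32 in PRY1 and PRY2, -5.66, -5.52 and -7.40 in HRY1 to HRY3, -7.05, -7.18 and -7.39 in PRA1 to PRA3, and -5.84, -5.52 and -7.36 in HRA1 to HRA3. In all 3 every aged parent-reared animal lay on the lower side together with 1 young and 1 aged hand-reared animal.

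In the 3 of these 8 members that were detected in every animal the sides differed by 1.39 to 2.26 on the log2 scale, and in the other 5 some or all animals of the lower side were not well above background. Transcripts outside the list with the same course were more numerous than for the other common splits: 126 of the 38669 transcripts outside the list and detected in every animal followed their mean with a correlation of at least 0.95 and a difference above 1, against 4 for the 8 members lower in HRY1 and HRY2 and 0 for the 8 low in HRY1, HRY2 and PRA3. The upper side held all 3 arrays of slide 1 and all 3 samples with the lowest RNA integrity numbers, while the lower side held the other 5 animals of slide 2, and the part of slide and RNA integrity in these levels was not tested. Over all 100 members the 3 samples of lowest integrity shared a side in 66, of which 41 had them on the upper side. HRA1 and HRA2 among them, of the same group and array row, shared a side in 86. Other sets of 3 animals were not counted, so nothing is read from the 66 about RNA integrity.

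The array slide itself was the split of 5 members, all higher on slide 1. Among the 619 transcripts it was the split of 12, counted in either direction. In ENSCJAT00000000025.1 the levels were -5.14 and -8.33 in PRY1 and PRY2, -4.92, -4.93 and -7.58 in HRY1 to HRY3, -9.16, -8.70 and -8.17 in PRA1 to PRA3, and -8.10, -8.72 and -8.88 in HRA1 to HRA3, so that it was detected on slide 1 and not well above background on slide 2, at least 3.57-fold lower. In ENSCJAT00000023512.2 they were 1.78 and 0.10 in PRY1 and PRY2, 1.50, 1.49 and 0.44 in HRY1 to HRY3, 0.36, 0.40 and 0.46 in PRA1 to PRA3, and 0.20, 0.01 and 0.37 in HRA1 to HRA3, a 2.46-fold difference. In ENSCJAT00000063679.1 they were -3.86 and -5.27 in PRY1 and PRY2, -3.78, -3.96 and -5.97 in HRY1 to HRY3, -5.54, -5.95 and -6.16 in PRA1 to PRA3, and -5.39, -5.27 and -5.52 in HRA1 to HRA3, a 3.40-fold difference. Slide 1 carried young animals only, 1 parent-reared and 2 hand-reared, so for these 5 members the slide and the animals on it cannot be told apart.

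Another 4 members were detected only in HRY3, HRA1, HRA2 and HRA3, which are all the hand-reared animals of slide 2 and all the arrays of its row 1. The level of ENSCJAT00000039454.2 was -8.79 and -8.91 in PRY1 and PRY2, -9.00, -8.46 and -5.68 in HRY1 to HRY3, -9.05, -8.59 and -9.09 in PRA1 to PRA3, and -4.80, -5.63 and -4.48 in HRA1 to HRA3, a difference of at least 3.26-fold. That of ENSCJAT00000062354.1 was -8.58 and -7.91 in PRY1 and PRY2, -8.14, -8.62 and -5.61 in HRY1 to HRY3, -8.84, -9.13 and -8.88 in PRA1 to PRA3, and -5.51, -5.21 and -5.82 in HRA1 to HRA3, at least 2.49-fold, and that of ENSCJAT00000006889.2 was -8.71 and -8.80 in PRY1 and PRY2, -8.91, -8.28 and -6.62 in HRY1 to HRY3, -8.03, -9.11 and -8.45 in PRA1 to PRA3, and -5.88, -5.70 and -5.88 in HRA1 to HRA3, at least 1.78-fold. HRY1 and HRY2, hand-reared and on row 1 of slide 1, were at the background in all 4, as was PRY1 beside them. On slide 2 rearing and array row cannot be told apart.

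A trio of members shared each of 3 further splits. ENSCJAT00000053044.1, ENSCJAT00000005294.2 and ENSCJAT00000052781.1 were low in PRY2, HRY1 and HRY3, and the first of them had -2.15 and -7.18 in PRY1 and PRY2, -7.23, -3.70 and -6.16 in HRY1 to HRY3, -2.96, -2.51 and -2.29 in PRA1 to PRA3, and -2.23, -2.40 and -2.46 in HRA1 to HRA3. All 3 low animals were young and 1 of them was above background, while the other young animals, PRY1 and HRY2, were as high as or somewhat below the aged animals. ENSCJAT00000030899.2, ENSCJAT00000030918.2 and ENSCJAT00000054273.1 were low in PRY1, HRY2, HRY3, PRA1 and PRA3, with -2.67 and -0.86 in PRY1 and PRY2, -1.32, -3.20 and -2.93 in HRY1 to HRY3, -3.00, -1.20 and -3.15 in PRA1 to PRA3, and -0.87, -0.25 and -0.43 in HRA1 to HRA3 in the first. Both sides of that split held young animals of both rearings and parent-reared aged animals, and the 3 HRA animals were all on the upper side. ENSCJAT00000057885.1, ENSCJAT00000006896.2 and ENSCJAT00000054934.1 were high in HRY1 and HRA1 alone, with -8.49 and -7.78 in PRY1 and PRY2, -3.82, -8.09 and -6.87 in HRY1 to HRY3, -7.29, -8.62 and -6.77 in PRA1 to PRA3, and -3.86, -6.80 and -7.60 in HRA1 to HRA3 in the first. The mean of that trio was -3.84 in both of the high animals, although the pair came from different stages and slides.

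What the choice of members did not use is the number in the identifier, and it was compared with the splits. Among the 4950 pairs of members, 19 had identifier numbers within 20 of each other, a window chosen after the values were seen, and 11 of these 19 had exactly the same animals on each side. Of the 4931 pairs farther apart, 116 or 2.35% did. The 11 pairs held 19 members, their correlation over the 11 animals was at least 0.973, and their spots were printed apart from each other on the array. Whether neighbouring identifiers belong to the same gene is not given in the sources used here, so such pairs may not be independent of each other. All counts given here take every member singly, and with the 11 pairs joined the 100 members came to 90. Members with identifiers farther apart could be as alike, so 90 is not a count of independent members. ENSCJAT00000022649.2 and ENSCJAT00000055291.1, for example, had 5.98 and 5.97 in PRY1 and 0.55 and 0.59 in HRY1.

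ENSCJAT00000013828.2 and ENSCJAT00000013824.2 showed how close such pairs were. The first had 0.70 and -2.18 in PRY1 and PRY2, -2.15, 0.99 and 0.07 in HRY1 to HRY3, -2.37, -2.38 and 0.71 in PRA1 to PRA3, and 0.09, 0.18 and 0.85 in HRA1 to HRA3, and the second 0.79 and -1.98 in PRY1 and PRY2, -1.96, 1.09 and 0.23 in HRY1 to HRY3, -2.41, -2.25 and 0.78 in PRA1 to PRA3, and 0.18, 0.25 and 0.88 in HRA1 to HRA3. PRY2, HRY1, PRA1 and PRA2 were low in both, 6.88-fold and 6.74-fold below the others, and after the mean offset no animal departed by more than 0.138. ENSCJAT00000033548.1, described above, had its partner in ENSCJAT00000033541.1, which was -3.41 in PRY2, -2.98 in PRA3 and -3.15 in HRA1 and between -1.54 and -0.95 in the others. ENSCJAT00000001708.1 and ENSCJAT00000001713.1 were low in PRA2 and HRA3, with a 4.86-fold and a 4.47-fold difference. ENSCJAT00000040240.2 and ENSCJAT00000040233.2 were low in PRY2 and PRA2, at least 9.35-fold and 4.84-fold, though their levels differed by up to 1.39, in PRY1. In every one of these pairs the split was repeated on spots at different places of the array.

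**Figure D3:**
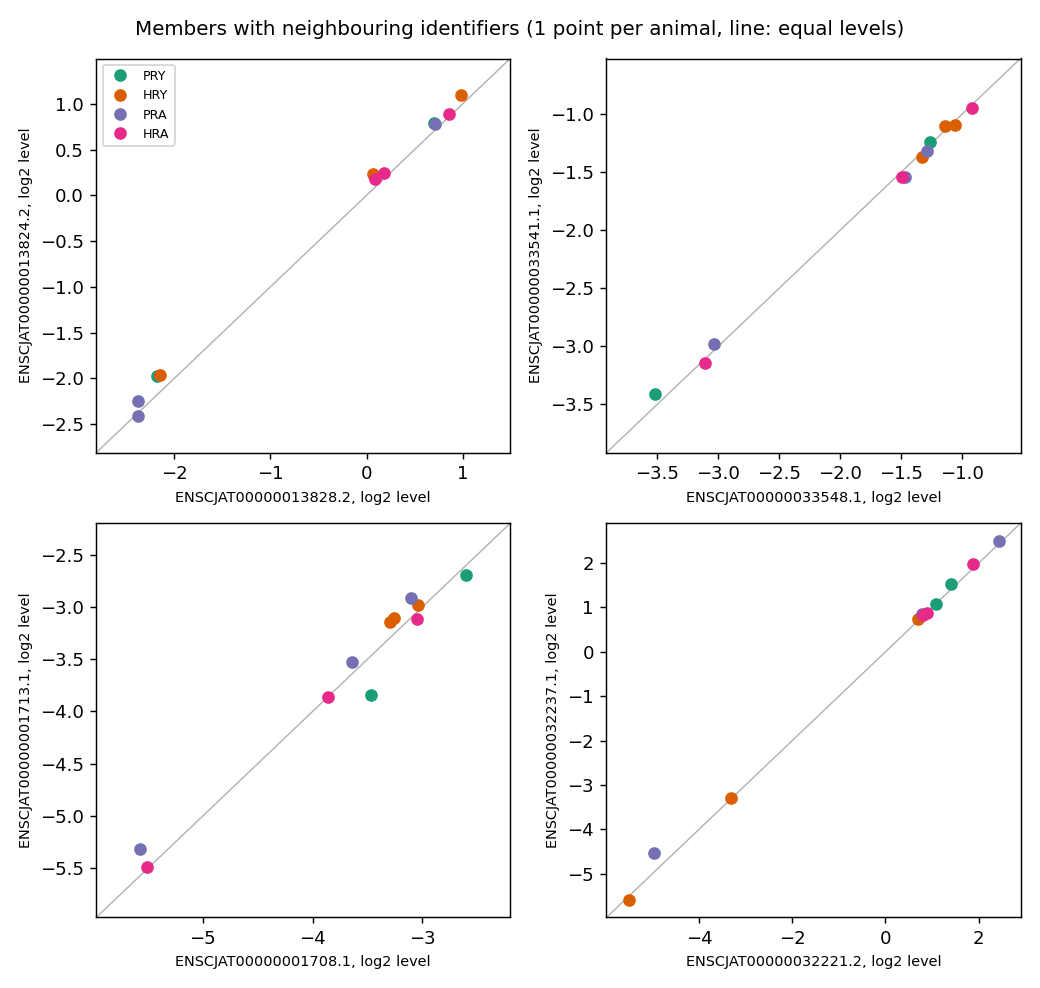
Log2 level of a member against that of the member with a neighbouring identifier, for 4 of the 11 pairs with the same split, with 1 point per animal coloured by group and a grey line of equal levels. The points form separate low and high clusters in each panel, and the levels of a pair differed by at most 0.449 in the 4 pairs plotted, the last of which is ENSCJAT00000032221.2 with ENSCJAT00000032237.1.

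Only transcripts outside the list that were well above background in at least 1 animal were used next, inside the window and outside it. Those with identifiers near a member were examined in the same way. Of 2775 such neighbours, taken once for each member they lay near, 25 or 0.901% had every animal of the member's upper side above every animal of its lower side with a mean difference above 1, against 0.581% of the pairs of a member and a transcript outside the window. The largest of these differences, 5.05, was that of ENSCJAT00000028108.2, next to the member ENSCJAT00000028103.2, with -5.99 and -5.37 in PRY1 and PRY2, -0.32, -0.02 and -4.31 in HRY1 to HRY3, -0.28, -2.68 and -3.10 in PRA1 to PRA3, and -8.03, -7.76 and -0.45 in HRA1 to HRA3. The member itself had -1.97 and -2.33 in PRY1 and PRY2, -0.01, 0.24 and -1.86 in HRY1 to HRY3, 0.06, -1.50 and -1.43 in PRA1 to PRA3, and -2.42, -2.27 and -0.04 in HRA1 to HRA3, so HRY1, HRY2, PRA1 and HRA3 were high in both. ENSCJAT00000040244.2 stood beside ENSCJAT00000040240.2 and ENSCJAT00000040233.2 with a difference of 4.59, and ENSCJAT00000015653.1 beside ENSCJAT00000015642.2 and ENSCJAT00000015660.3 with a difference of 2.58.

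The spots printed around each member were a further measure outside the rule. Over the 5 to 8 spots adjacent to each member, the median difference between the same animals was -0.24 to 0.41 on the log2 scale. The members' own spots differed by 1.25 to 5.87, with undetected spots at their measured signal. The rule had asked for a gap of at least 1 in the members' own spots, so nothing is read from the contrast. Single adjacent spots differed by -1.53 to 2.49, and 22 members had at least 1 adjacent spot with a difference above 1 in size. The local background differed between the sides by -7.67 to 11.2 intensity units with a median of 0.194. In 95 members the raw median signals of the sides, before any scaling, did not overlap. These raw signals come from the same spots that the rule used, so they are no measure apart from it. No 2 members lay on adjacent spots, and each had 1 spot per array, so that there was no repeated spot to compare.

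**Figure D4:**
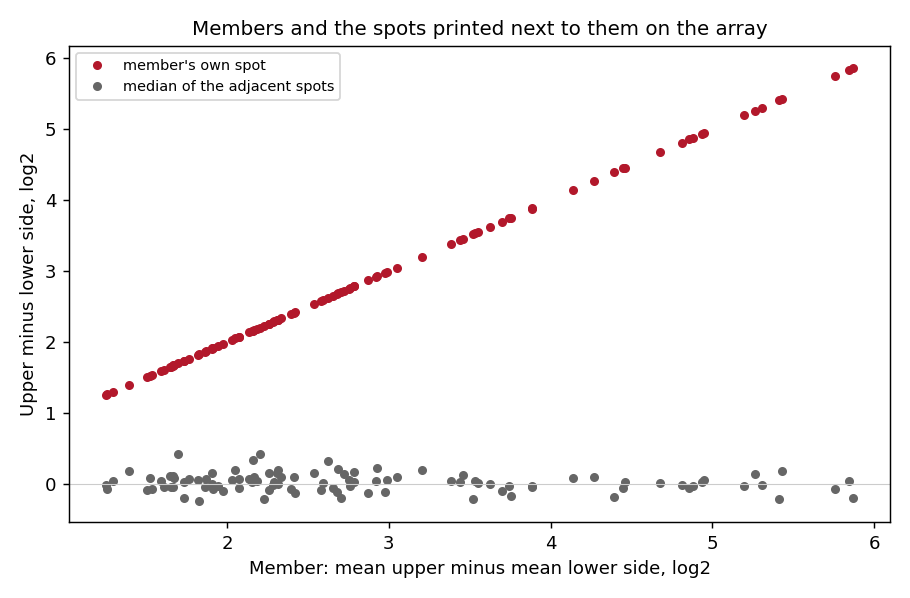
Difference between upper and lower side on the log2 scale (vertical axis) for the 100 members and for the median of the spots adjacent to them, against the member's own difference (horizontal axis). The medians of the adjacent spots stay between -0.24 and 0.41. The members reach from 1.25 to 5.87 and lie on the diagonal by construction, because the rule asked for a gap of at least 1 in them.

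The question of the study, whether rearing changed hippocampal transcripts at each stage, was then asked of the members with the study's criteria, which ask for more than a 2-fold difference and for p below 0.05 without adjustment. A filter on dim transcripts, which kept those well above background in every animal of at least 1 group, left 81 of the 100 members among 42034 transcripts tested. A wide gap favours a fold change above 2, and a dim member that passed the filter only through the group where it is high had to differ, so the counts of members are given beside the share of all tested transcripts and nothing is read from their excess. In young animals 9 members passed, 3 higher and 6 lower in HRY than in PRY, where the share of all transcripts was 2.65%, or 1.81% higher and 0.842% lower. In aged animals 11 members passed, of which HRA exceeded PRA in 9 and fell short of it in 2, where the share was 1.32%, or 1.01% higher and 0.314% lower. No member passed at both stages. The share of all tested transcripts that did was not computed, so nothing is read from this. Between the stages, with both rearings averaged, 13 members passed, 8 higher and 5 lower in the aged animals, where the share was 0.818%, or 0.359% higher and 0.459% lower. Of these members, 0 of the 9 in young animals, 5 of the 11 in aged animals and 7 of the 13 between the stages had passed the filter only where they were higher. With the near pairs joined, the 11 came to 10 and the other counts stood. After Benjamini-Hochberg adjustment over all tested transcripts in limma, 0 members and 0 transcripts passed in any of these comparisons in the fit of all 11 animals on 4 group means, and the members with an unadjusted p under 0.05 numbered 9 in the young, 14 in the aged and 19 between the stages, where the shares of all transcripts were 9.45%, 12.3% and 10.5%.

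The lowest p among the members in young animals was that of ENSCJAT00000039870.2, described above, in which HRY exceeded PRY by 2.27 (SE 0.62, limma's unadjusted p = 0.00469, adjusted p = 0.356). That difference rested on HRY1 and HRY2: it was 3.45 within slide 1 and 0.26 within slide 2, where HRY3 and PRY2 lay. In ENSCJAT00000053007.1, with -0.08 and -0.83 in PRY1 and PRY2, -2.85, -2.40 and -0.85 in HRY1 to HRY3, -0.83, -0.79 and -0.37 in PRA1 to PRA3, and -0.04, 0.03 and -0.43 in HRA1 to HRA3, HRY differed from PRY by -1.58 (SE 0.50, limma's unadjusted p = 0.0101, adjusted p = 0.416). Its difference was -2.54 within slide 1 and -0.02 within slide 2, so HRY3 was level with PRY2. In ENSCJAT00000018296.2, with -5.45 and -5.68 in PRY1 and PRY2, -8.78, -7.94 and -7.50 in HRY1 to HRY3, -5.87, -5.87 and -5.21 in PRA1 to PRA3, and -5.48, -5.03 and -8.87 in HRA1 to HRA3, PRY was at least 2.64-fold above HRY (limma's unadjusted p = 0.0227, adjusted p = 0.457). All 3 HRY animals were below both PRY animals there and not well above background, the sign was the same within each slide, and HRA3 was low as well. Of the 9 members that passed, 8 had a difference of the same sign and above 1 in size within slide 1, and 4 had one within slide 2. The same arrays had entered the fit that chose the 9, so nothing is read from these counts.

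The lowest p in aged animals belonged to members detected on row 1 of slide 2. ENSCJAT00000039454.2 was at least 3.91-fold higher in HRA than in PRA, ENSCJAT00000006889.2 at least 2.17-fold and ENSCJAT00000062354.1 at least 2.69-fold. Each was well above background in all 3 HRA animals, in 1 HRY animal and in no other, so each was tested only because it was high in HRA and its p is not given. All 6 aged animals shared slide 2, and row 1 held HRA and row 2 held PRA, so rearing and row cannot be told apart in the aged comparison. Without the members split by slide or array row, an alternative chosen after the data were seen, 9 members passed in young animals, 7 in aged animals and 7 between the stages.

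Between the stages the lowest p was that of ENSCJAT00000050004.1, a member split by slide, with -4.12 and -5.50 in PRY1 and PRY2, -4.09, -3.97 and -5.34 in HRY1 to HRY3, -6.10, -6.24 and -5.63 in PRA1 to PRA3, and -5.47, -6.00 and -5.56 in HRA1 to HRA3. The aged animals differed from the young by -1.19 (SE 0.32, limma's unadjusted p = 0.00387, adjusted p = 0.423), but by -0.41 within slide 2. The next 2, ENSCJAT00000006889.2 and ENSCJAT00000053044.1, had passed the filter only through aged groups in which they were high, so their p and the size of their differences are not given. The first was well above background in 3 of the 6 aged and 1 of the 5 young animals, and the second, of the trio low in PRY2, HRY1 and HRY3, in all 6 aged and 3 of the 5 young animals. Slide 1 held no aged animal, and of the 13 members that passed, 12 kept their sign and 4 also exceeded 1 in size within slide 2. The 4 included the trio low in PRY2, HRY1 and HRY3, which had passed the filter only through aged groups where it was high. The arrays of slide 2 had entered the fit that chose the 13, so nothing is read from these counts.

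**Figure D5:**
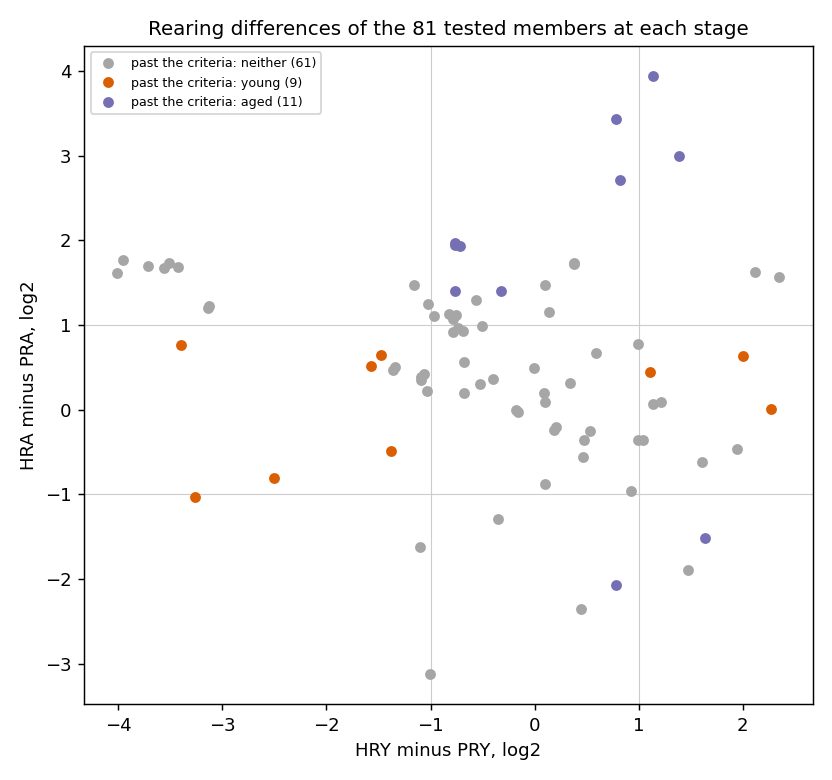
Log2 difference between hand-reared and parent-reared animals in the young (horizontal axis) and in the aged (vertical axis) for the 81 tested members, coloured by the comparison in which the member passed the criteria, with undetected spots at their measured signal. The 9 members past the criteria in young animals and the 11 in aged animals are different transcripts. Nothing is read from this, as the share of all tested transcripts past the criteria at both stages was not computed. The grey points reach as far from 0 as many coloured ones.

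The rearing difference in aged animals minus that in young animals was also fitted, and 20 members passed the criteria where the share of all transcripts was 8.75%, with 0 members after adjustment in limma and 20 at an unadjusted p under 0.05, where the share was 18.7%. The lowest adjusted p of a member was 0.214 there, 0.356 in the young, 0.271 in the aged and 0.423 between the stages. The sides cut through the groups: the 8 members low in HRY1, HRY2 and PRA3 differed by -4.01 to -3.13 between HRY and PRY and none of them passed, with HRY3 near PRY1 and PRY2 in each. Groups did not overlap in 21 of the 81 members in young animals, where 22.5% of all tested transcripts did not, and in 18 in aged animals, where 19.9% did not. The counts past the criteria moved with single animals. Without HRY3 they were 25 in the young and 29 between the stages, where 1466 and 981 of all 42666 tested transcripts passed. Without HRY2 they were 4 and 6, where 1178 and 306 of all 42130 passed. Without HRY1 they were 7 between the stages, where 265 of all 42314 passed. Without PRA3 they were 16 in the young, where 1096 of all 42197 passed. Without HRA3 they were 25 in the aged, where 2054 of all 42292 passed. With RNA integrity as a covariate the members past the criteria were 4, 7 and 16, where 1915, 682 and 377 of all 42034 passed. With the array slide as a block the members were 13, 14 and 6, where 1410, 633 and 465 of all 42034 passed.

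Calls after adjustment appeared under some of these alternatives. The members were chosen for wide gaps, and leaving out an animal can turn a split that divides a group into one between groups. Some members also passed the filter only where they were high. Nothing is therefore read from the members' counts or adjusted p given here. In limma, members with an adjusted p under 0.05 numbered 1 in the aged with the array slide as a block and 2 in the aged when only HRA and PRA were fitted. Without HRY3 they numbered 2 in the young, 4 in the aged and 1 between the stages, without HRA1 1 in the aged, and without PRY2 1 between the stages, whereas every other alternative gave 0 in these 3 comparisons. Over all tested transcripts the largest numbers were 2096 in the young and 764 between the stages without PRY2, where PRY1 was left alone in its group and was assumed to vary like the other groups, and 583 in the aged without HRA3. The lowest adjusted p of a member ranged over the alternatives from 0.0144 to 0.840 in the young, from 0.00602 to 0.839 in the aged and from 0.0154 to 0.643 between the stages.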

How the data were processed

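One-colour Agilent arrays of total hippocampal RNA from 11 male marmosets were used, 1 array per animal. The authors labelled the RNA with Cy3 and deposited scanner output of Agilent Feature Extraction 11.0.1.1 (version per the labels), whose processed signal is a background-corrected intensity per spot on a linear scale. The authors' table of the whole series, also an intensity, was taken as an alternative after log2 and held 96 of the 100 members. Control spots and outlier spots were dropped, saturation was flagged on 0 spots, log2 intensity was averaged over the spots of a transcript, and each array's 75th percentile was subtracted. Of 54670 transcripts on the array, 29 lacked a usable spot in at least 1 animal and were not used. The members and all lists were chosen with earlier results of these data known.

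The groups were compared with limma 3.58.1 in R 4.3.3 (lmFit and eBayes on 4 group means, Benjamini-Hochberg adjustment over all transcripts tested), which was tested on simulated data, as was the rule for the members in Python 3.11.15. Replicates are separate animals, and their number limits the precision. Named members are the 10 with the highest ratio, the 3 with the widest gap that were detected in every animal, the first 3 by ratio of the 3 most common splits and of splits equal to rearing, stage or slide, the 3 with the lowest p past the criteria in each comparison, and the pair at the threshold; all others named were chosen after their values were seen. The alternatives were quantile normalization, normexp background correction with an offset of 50 on the median signal, other filters, slide, replicate number and RNA integrity number (from the study's sample list, tied to the arrays by the array file names in its sample overview) as covariates, fits of the 2 groups compared, the methods' t-test and the omission of each animal. The replicate numbers do not pair the animals: the deviations of same-numbered animals from their group means correlated at -0.26 to 0.14. No probe sequence was used here.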

Additional observations from a re-analysis of the deposited data

How the results depend on the processing

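Of the 100 members, 39 remained with a minimum gap of 2, 61 with at least 3 animals on each side, 41 after normexp background correction and 47 when every animal had to be well above background, and 64 to 87 remained when an animal was left out and the rule applied to the other 10, with 64 without HRY2 and 65 without PRA1. The other alternatives kept at least 80. The numbers past the criteria were 4 to 25 in young animals, 8 to 25 in aged animals and 6 to 29 between the stages when an animal was left out. In young animals the 4 came without HRY2 and the 25 without HRY3, where 1178 of 42130 and 1466 of 42666 tested transcripts passed. In aged animals the 8 came without HRA2 and the 25 without HRA3, where 321 of 42089 and 2054 of 42292 passed. Between the stages the 6 came without HRY2 and the 29 without HRY3, where 306 of 42130 and 981 of 42666 passed. Members past the criteria in young animals numbered 4 with RNA integrity as a covariate, 1 by the methods' t-test and 4 from the 2 groups alone. Of all 42034 tested transcripts 1915, 405 and 901 passed there, and 0 members passed at an adjusted p under 0.05. In aged animals 5 members passed after normexp, 7 among transcripts well above background in all animals and 7 with RNA integrity as a covariate. Of all tested transcripts 95 of 42034, 274 of 38716 and 682 of 42034 passed there. Without the members split by slide or array row (chosen after the data were seen) 7 passed, and 0 passed at an adjusted p under 0.05. Between the stages 4 members passed after normexp and 5 among transcripts well above background in all animals. Of all tested transcripts 73 of 42034 and 155 of 38716 passed there. With slide as a block 6 members passed and by the methods' t-test 6, where 465 and 206 of all 42034 passed. Without the members split by slide or array row 7 passed, and 0 passed at an adjusted p under 0.05. Members with an adjusted p under 0.05 in limma numbered 0 to 2 in young animals, 0 to 4 in aged animals and 0 to 1 between the stages when an animal was left out, the highest without HRY3 (between the stages also without PRY2), with 1 in the aged without HRA1, 1 in the aged with slide as a block and 2 in the aged from the 2 groups alone. With the replicate number as a replicate block, in animals that share no pairing, the members past the criteria numbered 9, 17 and 8. Of all 42034 tested transcripts 1008, 595 and 256 passed there. For the interaction of rearing and stage, fitted under the alternatives after the data were seen, 0 to 3 members had an adjusted p under 0.05 when an animal was left out, with 3 without HRA3, and 0 otherwise. The causes of these shifts were not tested, and nothing is read from the members' counts, because the members were chosen for wide gaps. Dim signal limits the 39 members with an undetected lower side, whose folds are bounds.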
